A study of Homo sapiens with 4 samples.

Results

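The genes described here are the clustered histone genes, chosen by symbol alone: every gene whose older symbol opens with HIST1 to HIST4 followed by a histone class (H1, H2A, H2B, H3 or H4). There were 74 such genes among the 28058 genes of the count table. By class they were 6 H1, 18 H2A, 20 H2B, 15 H3 and 15 H4 genes. The HIST1 cluster on chromosome 6 held 56 of them, the HIST2 cluster on chromosome 1 held 14, HIST3 held 3 and HIST4 held 1.

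RNA was sequenced from cells labelled as SH-SY5Y, a line grown from a human neuroblastoma, after poly(A) selection with a stranded mRNA library kit. The shock wave treatment (SWT) group had 2 samples. In its protocol, flasks of cells stood in a water bath at 37 °C, 7 cm from the applicator, and received 300 impulses of 0.08 mJ/mm2 at 3 Hz, with RNA taken 6 h later. The control group had 2 untreated samples of the same cells. The series design text speaks of exosomes in place of direct treatment of the cells; which of them applies could not be settled. Nothing says that replicates were separate cultures, so every p-value below rests on a spread between samples that may be only technical.

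Clustered histone genes supply the histones that package new DNA during S phase. Their messages are made without introns and normally without a poly(A) tail: the transcript is cut just past a short hairpin, the stem-loop, which the protein SLBP binds. Some of these genes also give longer, polyadenylated messages, which are best known from cells that have left the division cycle or are differentiating, and poly(A) selection keeps mainly messages of that second kind.

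The hairpin was searched for in the annotated transcripts of GENCODE release 29, on the transcript's strand past the stop codon, with any base allowed where the 5 forms spelled out after the sequences differ from each other. It was found in 31 of the 74 genes, 23 to 68 bases past the stop, against 3 of 19598 other protein-coding genes (0.0153%). Those other genes were searched over the whole transcript, not only past the stop. The 6 sequences that follow, with 5 flanking bases on each side and the hairpin in capitals, belong to the genes with the highest levels that carry it in an annotated transcript.
HIST1H2AC: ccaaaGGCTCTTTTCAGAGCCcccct
HIST1H2BD: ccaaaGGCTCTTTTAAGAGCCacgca
HIST2H2BE: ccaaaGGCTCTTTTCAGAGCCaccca
HIST3H2A: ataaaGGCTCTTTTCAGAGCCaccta
HIST1H2BC: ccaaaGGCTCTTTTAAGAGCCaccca
HIST1H4H: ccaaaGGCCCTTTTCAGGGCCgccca
Of the 5 forms, the commonest, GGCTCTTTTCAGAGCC, was in 17 genes of the H2A, H2B and H3 classes, and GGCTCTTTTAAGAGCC was in 5 genes of the H2B and H3 classes. H4 genes carried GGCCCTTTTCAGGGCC in 5 cases and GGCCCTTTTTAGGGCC in 3, and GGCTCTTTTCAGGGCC was in 1 H2A gene.

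A second group of sequences shows the poly(A) signals of most of the same genes. AATAAA or ATTAAA, searched on the transcript's strand within the last 40 bases of an annotated transcript, past both the stop and any hairpin, was present in 21 of the 74 genes, against 80.9% of the other protein-coding genes. For those other genes the conditions on the stop and the hairpin were not applied. The last 30 transcript bases are printed with the signal nearest to the end in capitals, for the 7 genes among the 10 highest in level that have one.
HIST1H2AC: agcctggcatgaggtAATAAAaggtaatgc
HIST1H2BD: taattAATAAAatctgcggagaattgtaaa
HIST2H2BE: gttattAATAAAgttaccaattaatttaaa
HIST3H2A: tctgatATTAAAagtatttatgatctctaa
HIST1H2BC: agacaaaATTAAAataactcctagtatctc
HIST1H2BJ: gaataaatgAATAAAgtaatattcctctgc
HIST1H4H: aggtgAATAAAatcaggtcactcttctgct
These ends lie 1173 bases past the stop in HIST1H2AC, 384 in HIST1H2BD, 1801 in HIST2H2BE, 446 in HIST3H2A, 272 in HIST1H2BC, 569 in HIST1H2BJ and 687 in HIST1H4H. The annotated models of 35 genes, HIST1H2BK and HIST1H1C among them, end at the stop codon and could be searched for neither feature.

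Total counts per library were 9888263 to 11686808, with 15715 to 15988 genes counted at least once. SH-SY5Y is usually described as noradrenergic, but 6 of the 12 noradrenergic markers looked at were at 0 in all 4 libraries (TH, DBH and CHGA among them). The list summed to 82.3 and 73.9 CPM (counts scaled to a common library size) in SWT libraries, against 77.1 and 78.9 CPM in control libraries. Other markers of that list were counted in every library: HAND2 at a mean of 52.0 CPM, GATA2 at 15.9, ISL1 at 5.76, GATA3 at 2.73 and CHGB at 1.61. The 10 mesenchymal markers summed to 12127 to 13664 CPM. Control replicate 2 stood apart in heart muscle genes: 12 such genes summed to 31.3 and 10.4 CPM in SWT libraries, against 7.83 and 299 CPM in control libraries. Their part in the results below was not tested, and some comparisons are given with and without that library.

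The 74 clustered histone genes together drew few reads. They held 2780 and 3283 counts in SWT libraries, against 3572 and 2776 counts in control libraries, which is 0.0277% and 0.0281% of all counts in SWT libraries and 0.0307% and 0.0281% in control libraries. On the CPM scale, with library sizes scaled by TMM, the sum was 276 and 282 in SWT libraries, against 307 and 280.4 in control libraries. Control replicate 1 had the highest sum, and the other control library lay between the SWT libraries. The mean was 279 ± 4.13 CPM with SWT and 294 ± 19.1 CPM in controls (SD, n = 2 each), a log2 ratio of -0.08, within the spread of the controls. Without control replicate 1 that ratio was -0.0092, and without control replicate 2 it was -0.14. In bulk RNA, fewer cells in S phase and less histone RNA in each such cell cannot be told apart.

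By class, the H2B genes held 56.6% of these CPM, the H1 genes 23.0%, the H2A genes 12.5%, the H3 genes 6.51% and the H4 genes 1.42%, with no correction for length. H2B genes summed to 156 and 161 CPM in SWT libraries, against 170 and 161 CPM in control libraries. H1 genes summed to 63.7 and 65.4 CPM in SWT libraries, against 71.4 and 62.4 CPM in control libraries. The other core histone classes were lower: H2A genes gave 33.6 and 35.3 CPM in SWT libraries, against 42.4 and 32.3 CPM in control libraries. H3 genes gave 18.7 and 16.04 CPM with SWT, against 19.1 and 20.6 CPM in controls, and H4 genes 3.27 and 4.12 CPM with SWT, against 4.73 and 4.14 CPM in controls. Nucleosomes hold equal numbers of the core histones, whereas the reads of these genes were spread unequally over the classes in every library. These shares do not measure the supply of each histone, since poly(A) selection keeps mainly the polyadenylated messages. In addition, the 6 genes at 0 with an identical coding copy, named below, are H2A, H3 and H4 genes, and their zeros may not be their own levels. The 2 groups overlapped for H1 and H2A. Both SWT libraries lay below both control libraries for H2B, H3 and H4, a difference without a test. In each of these 3 classes the gap between the nearest libraries of the groups was under 1 CPM.

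**Figure D1:**
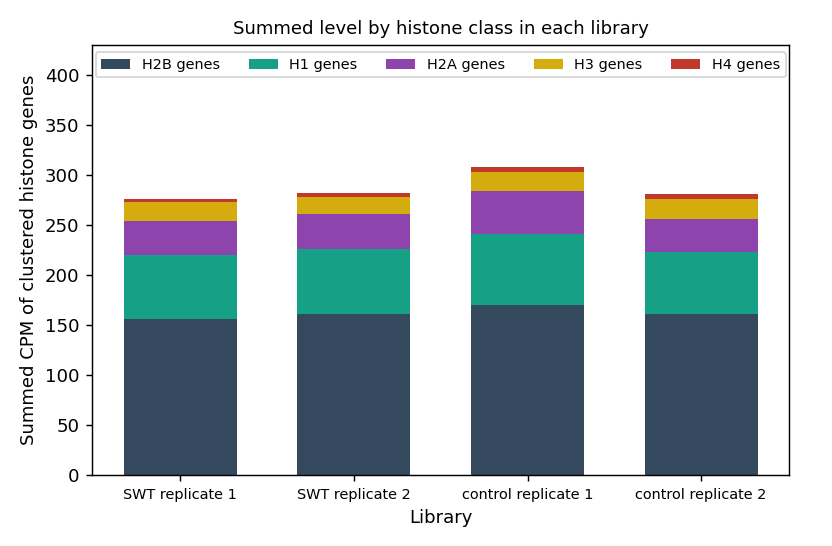
Summed CPM (y axis) of the clustered histone genes in each library (x axis), stacked by histone class. The 2 SWT bars reach 276 and 282 CPM and the control bars 307 and 280.4 CPM, with H2B genes the largest block of every bar.

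Most of the 74 genes were at or near 0. In all 4 libraries 14 genes had no count: HIST1H1A, HIST1H2AA, HIST1H2AD, HIST1H2APS1, HIST1H2BA, HIST1H4F, HIST1H4G, HIST2H2AA3, HIST2H2AA4, HIST2H3A, HIST2H3C, HIST2H4A, HIST2H4B and HIST3H3. A count of 0 allows up to 3 counts, which is 0.298 and 0.257 CPM in the SWT libraries and 0.258 and 0.303 CPM in the control libraries, for counting error only. Of these genes, 6 are the pairs HIST2H2AA3 and HIST2H2AA4, HIST2H3A and HIST2H3C, and HIST2H4A and HIST2H4B, whose coding sequences are identical within each pair. How reads with several matches were counted is not given in the sources used here, so these zeros may not be the genes' own levels. A further 44 genes had a count but under 10 in every library. The remaining 16 passed the filter on low counts and 14 of those were at 1 CPM or more in every library. HIST1H2AE had the lowest mean among the 16, 1.15 CPM, and HIST1H3H the highest among the 58 others, 0.670 CPM. These 58 summed to 10.4 and 8.15 CPM in SWT libraries, against 11.0 and 10.7 CPM in control libraries. They include HIST1H4C, an H4 gene with 2 and 2 counts in SWT libraries, against 5 and 2 counts in control libraries.

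Per length the order was led by 1 H2B gene and 1 H1 gene. HIST1H2BK stood at 289 ± 5.90 CPM per coding kilobase (SD over 4 libraries), and HIST1H1C at 98.5 ± 6.05. HIST1H2AC followed at 62.5 ± 9.56, and the ranges of these 3 over the libraries did not overlap with each other or with the next gene. HIST1H2BD at 42.8 ± 5.32 and HIST2H2BE at 42.1 ± 3.31 overlapped. HIST2H3PS2 at 31.1 ± 2.85 was apart from both neighbours in the order. HIST3H2A at 20.9 ± 4.76, HIST1H2BC at 15.5 ± 1.10 and HIST1H2BJ at 14.4 ± 1.14 overlapped in that order, and HIST1H4H, the highest H4 gene, stood at 8.28 ± 2.01. These 10 genes held 92.9% of the summed CPM, and HIST1H2BK alone 38.5%. With the length of all exons in place of the coding length, 9 of these 10 were again among the highest 10. HIST1H2AC then stood at 14.7 ± 2.25, HIST2H2BE at 7.31 ± 0.574, and HIST2H3PS2 took the place behind HIST1H1C, since its model holds coding sequence only. The models of HIST1H2BK and HIST1H1C hold coding sequence only as well, so their values were the same with either length. RefSeq gives HIST1H2BK a span of 8566 bases, and the annotation used for the counts is not known. If longer exons of HIST1H2BK were counted, its level per length is too high here.

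**Figure D2:**
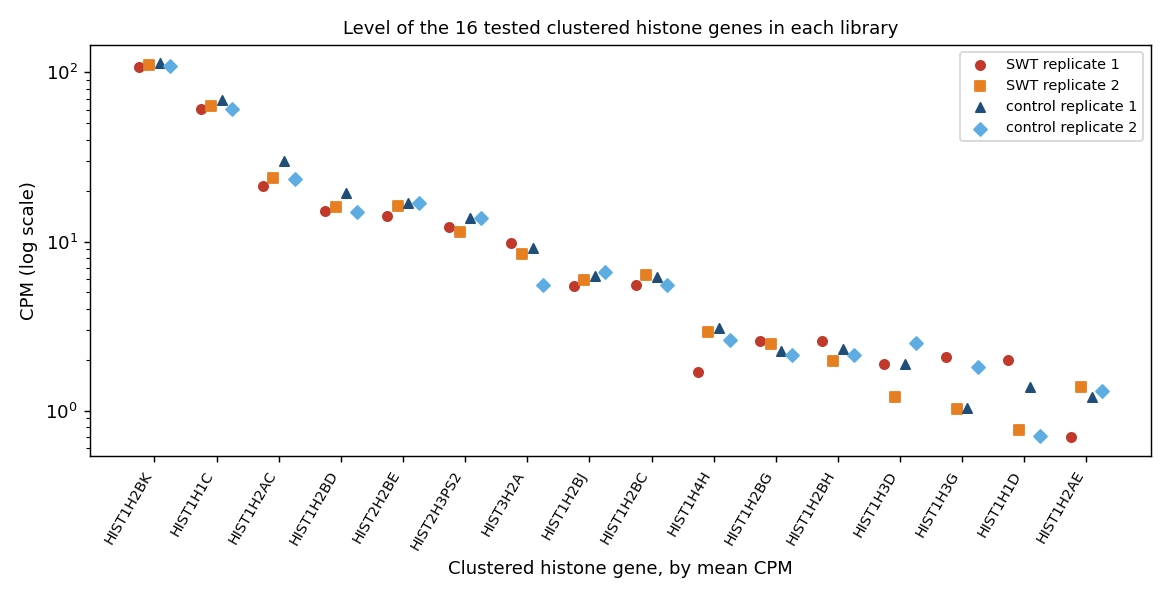
CPM on a log scale (y axis) of the 16 clustered histone genes that passed the filter on low counts (x axis, by mean CPM), 1 symbol per library. HIST1H2BK lies above 100 CPM in all libraries, and the 4 symbols of a gene lie closer together for the higher genes than for the lowest.

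Genes with an annotated polyadenylated end had the higher median level per coding length, but not per exon length, and not the larger sum. The 21 genes with a poly(A) signal at an annotated end had a median of 1.51 CPM per coding kilobase. The 53 genes without one, of which 35 have models that end at the stop, had 0.339. Dividing by coding length leaves out the bases past the stop, so it may raise genes with long annotated ends. Per kilobase of all exons the medians changed places, at 0.232 CPM (HIST1H3E) with a signal and 0.272 CPM (HIST1H2BF) without. Summed over genes, those with a signal held 86.0 CPM and those without 200.3 CPM, of which HIST1H2BK supplied 110.2 CPM and HIST1H1C 63.3 CPM. Likewise the 35 models that end at the stop held 193.7 CPM and the 39 others 92.6 CPM. Genes with a signal supplied 9 of the 16 genes that passed the filter and 7 of the 10 highest. Of the other 3 of those 10, HIST1H2BK and HIST2H3PS2 belong to the 11 genes whose RefSeq span (GRCh38.p14) is over 1000 bases, far longer than a histone coding sequence. RefSeq gives HIST1H2BK a span of 8566 bases with 3 transcripts, and HIST2H3PS2 a span of 3592 bases. Only HIST1H1C, with a span of 731 bases, had neither feature among the 10. Taken with a long RefSeq span, which brings in HIST1H2BK at 110.2 CPM, the 26 genes with either feature held 211 CPM. The 48 with neither held 75.3 CPM, of which HIST1H1C was most. The RefSeq span was not among the features planned, and a long span alone does not show a polyadenylated end. Not every gene with a signal was detected: 5 of the 21 were at 0, each with an identical coding copy. The hairpin and the signal are not alternatives in this annotation, since 19 genes carry both. Among the 31 genes with the hairpin in an annotated transcript the median was 0.854 CPM per coding kilobase, against 0.339 in the 43 others. Of those others, 35 have models that end at the stop and could not be searched for the hairpin. Per kilobase of all exons these medians changed places too, at 0.154 CPM (HIST1H2AG) with the hairpin and 0.296 CPM (HIST1H2AH) in the others. These counts describe the annotation beside the level and carry no test.

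**Figure D3:**
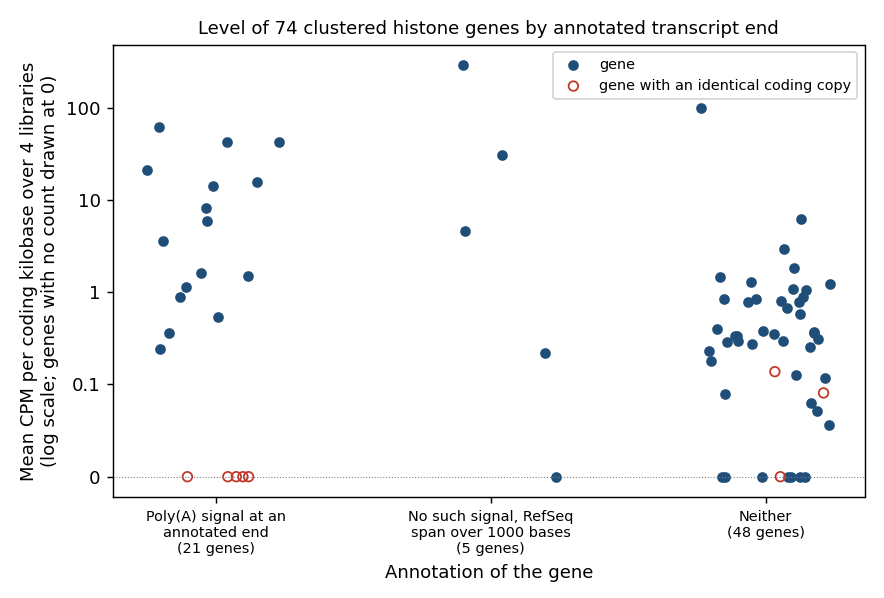
Mean CPM per coding kilobase over 4 libraries (y axis, log scale, genes without a count drawn at 0) of the 74 clustered histone genes, by annotated transcript end (x axis); 3 pseudogenes without a coding transcript are divided by exon length. Open circles mark the 8 genes whose coding sequence has an identical copy. Of the 10 highest genes, 9 lie in the first 2 columns.

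Many H2A and H2B genes lie head to head and often share a short promoter region. Of the 74 genes, 13 pairs had divergent starts within 1000 bases, and 12 of these pairs joined an H2A to an H2B gene. HIST1H2BA and HIST1H2AA were both at 0, and several other pairs rested on a few counts. The pairs with more counts were unequal. HIST1H2BK averaged 110.2 ± 2.25 CPM, while HIST1H2AH, which starts 331 bases away, had 1 and 0 counts in SWT libraries, against 3 and 1 counts in control libraries. HIST2H2BE stood at 42.1 CPM per coding kilobase and HIST2H2AC, 323 bases away, at 1.48. In HIST3H2A and HIST3H2BB, 234 bases apart, the H2A gene was the higher, at 20.9 against 1.22 CPM per coding kilobase. HIST1H2AC and HIST1H2BC, 219 bases apart, were the only pair with both genes among the 10 highest, at 62.5 and 15.5 CPM per coding kilobase. HIST1H2BJ and HIST1H2AG, 292 bases apart, stood at 14.4 and 0.882. HIST1H2BG and HIST1H2AE, 283 bases apart, were closer, at 6.18 and 2.92. Per kilobase of all exons HIST1H2AE was the higher of this pair, at 2.25 CPM against 1.54 CPM. Which partner was higher therefore differed between pairs. HIST2H2BE, HIST3H2A, HIST1H2AC and HIST1H2BJ, each the higher of its pair, have a poly(A) signal at an annotated end, and so do the lower partners HIST1H2AG and HIST1H2BC.

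**Figure D4:**
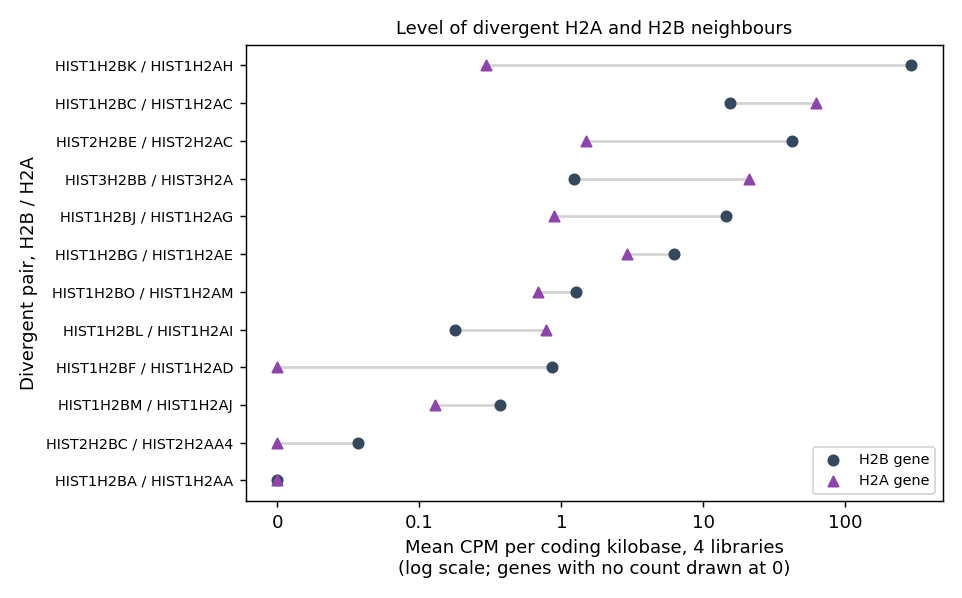
Mean CPM per coding kilobase over 4 libraries (x axis, log scale, genes without a count drawn at 0) of the 12 divergent H2B and H2A neighbours (y axis, the highest sum at the top), with circles for H2B and triangles for H2A. HIST1H2BK and HIST1H2AH are the farthest apart. The H2A gene is the higher one in the pairs of HIST1H2AC, HIST3H2A and, at few counts, HIST1H2AI. With exon length in place of coding length it is also the higher one in the pair of HIST1H2AE.

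The promoters of the highest H2B and the highest H2A gene are printed, since each also lies next to the start of a divergent partner. Both are RefSeq windows on GRCh38.p14, 250 bases before to 50 bases after the start, on the strand of the gene. Capitals mark the octamer ATTTGCAT, the box CCAAT and the letters TATAAA, each on either strand, and in the run TTTATAAA the last motif overlaps itself on the opposite strand. HIST1H2BK is at chr6:27146806-27147105 on the minus strand and HIST1H2AC at chr6:26123922-26124221 on the plus strand.
HIST1H2BK: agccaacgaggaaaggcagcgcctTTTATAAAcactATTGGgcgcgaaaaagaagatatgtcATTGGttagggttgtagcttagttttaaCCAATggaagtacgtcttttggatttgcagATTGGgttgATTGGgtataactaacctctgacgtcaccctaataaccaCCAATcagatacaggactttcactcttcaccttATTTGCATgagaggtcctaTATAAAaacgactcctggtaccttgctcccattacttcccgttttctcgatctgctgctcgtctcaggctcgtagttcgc
HIST1H2AC: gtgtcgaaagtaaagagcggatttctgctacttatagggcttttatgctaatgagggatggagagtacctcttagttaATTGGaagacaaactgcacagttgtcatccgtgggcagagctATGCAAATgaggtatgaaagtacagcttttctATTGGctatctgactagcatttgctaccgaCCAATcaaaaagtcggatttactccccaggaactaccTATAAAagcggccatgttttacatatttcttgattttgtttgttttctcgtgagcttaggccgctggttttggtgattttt
Promoters were found for 66 of the 74 genes, in 70 windows. The octamer was in 15 of 20 H2B windows (75%) and 11 of 16 H2A windows (68.8%), in 1 of 15 H3 windows and in 0 of 6 H1 and 0 of 13 H4 windows, against 1.77% of all 35116 promoter windows. CCAAT was in every H1, H2A, H2B and H3 window and in 3 of 13 H4 windows, against 34.6% of all windows. TATAAA was in 67.1% of the windows of these genes, against 11.5% of all. A match describes the letters only, and the windows are not independent. Those of divergent neighbours can overlap, as for HIST1H2AC and HIST1H2BC, so the same octamer can count in both classes. The 20 H2B windows come from 18 genes, since HIST1H2BK and HIST1H2BD each have windows that nearly coincide. The H3 window with the octamer is a further window of HIST1H3D, at the same place as that of HIST1H2AD. HIST1H1C, the highest H1 gene, has CCAAT but neither the octamer nor TATAAA in its window.

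SWT was compared with control in 1 fit over all 12399 genes that passed the filter, with edgeR's quasi-likelihood test and Benjamini-Hochberg adjustment. None of the 16 clustered histone genes in it passed an adjusted p of 0.05: 0 were called higher and 0 lower, as for all genes tested (0%). At an unadjusted p under 0.05 there were 715 genes (5.77%) and 0 of the 16. DESeq2 gave 116 of 17737 genes, limma-voom gave 721 of 12399, and the deposited log2 values under limma gave 847 of 17151 at that level, each with 0 of the 16. The log2 fold change was above 0 in 6 of the 16 genes and below 0 in 10, while it was below 0 in 50.3% of all genes tested. Their median log2 fold change was -0.10, with a range of -0.52 to 0.33, and that of all genes tested was -0.00078. The median was below 0 in every alternative run for it, from -0.14 to -0.0093, over the same 16 genes except for 9 with a mean count of at least 50 and 17 without SWT replicate 1. Both SWT libraries lay below both control libraries in 4 of the 16 genes (25%), against 18% of all genes tested. These were HIST2H2BE, HIST2H3PS2, HIST1H2BJ and HIST1H3D. Both SWT libraries lay above both controls in 1 gene, HIST1H2BG (6.25%), against 17.3% of all genes tested. The median difference of the 16 between the SWT libraries, replicate 2 minus replicate 1, was 0.050, and between the controls it was -0.097, about the size of the difference between the groups. Control replicate 1 had the highest of the 4 values in 6 of the 16 genes (37.5%), against 29.7% of all genes tested.

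**Figure D5:**
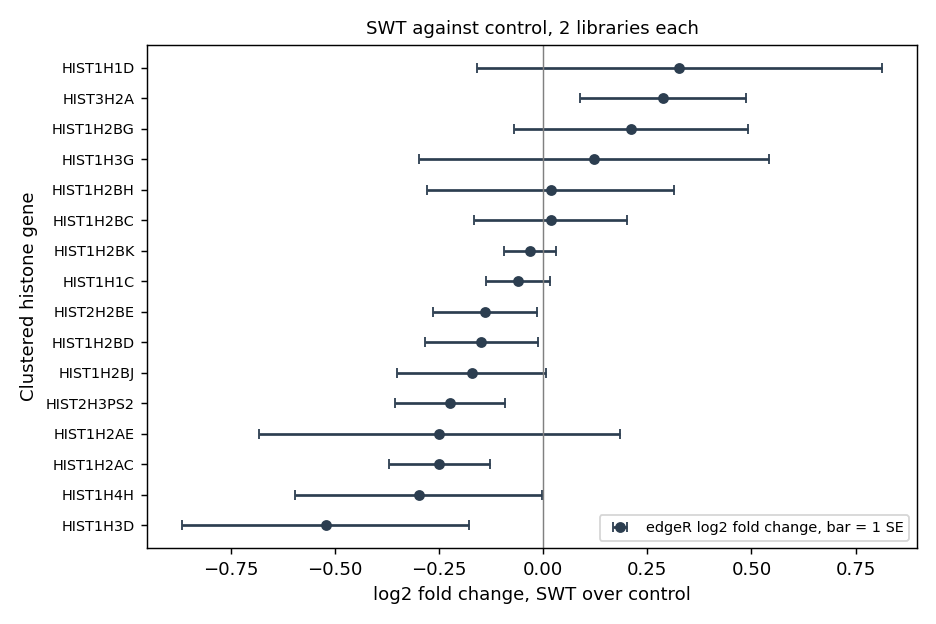
Log2 fold change of SWT over control (x axis) with 1 SE from the edgeR fit, for the 16 clustered histone genes tested (y axis). HIST1H1D, at 0.33, and HIST1H3D, at -0.52, are the ends of the range, and none passed the adjusted threshold.

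Among the linker histones, which bind DNA between nucleosomes, HIST1H1C (GENCODE 29 on GRCh38, chr6:26055787-26056428, minus strand, 1 exon) was the highest. It had 60.5 and 63.5 CPM in SWT libraries, against 68.7 and 60.4 CPM in control libraries. The control values span both SWT values, and the log2 fold change was -0.06 with an SE of 0.08 (edgeR adjusted p = 0.941). HIST1H1D (chr6:26234268-26234933, minus strand) had 1.98 and 0.772 CPM in SWT libraries, against 1.38 and 0.707 CPM in control libraries, from 7 to 20 counts. The SWT libraries differed from each other by more than the groups did, and its log2 fold change of 0.33 (SE 0.49, with an adjusted p of 0.952 by edgeR) was -0.45 without SWT replicate 1. The other 4 H1 genes were not tested; HIST1H1B had 8 and 6 counts in SWT libraries, against 7 and 5 counts in control libraries, and HIST1H1E had 4 and 7 counts with SWT, against 8 and 4 counts in controls.

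H2A pairs with H2B in the nucleosome core. HIST1H2AC (chr6:26124145-26139116, plus strand), whose 3 annotated transcripts are all spliced in GENCODE 29, had 21.2 and 23.8 CPM in SWT libraries, against 29.96 and 23.3 CPM in control libraries. One control library is the highest and the other lies between the SWT libraries. The log2 fold change was -0.25 (SE 0.12), with an unadjusted p of 0.0543, the smallest of the 16 genes, and an edgeR adjusted p of 0.843. Without control replicate 2 it was -0.41 with an edgeR adjusted p of 0.0361, in a fit that called 1.6% of all genes tested, and over all the libraries left out in turn it ran from -0.41 to -0.048. It was the only clustered histone gene that passed the threshold in any alternative, the crossed pairing included; the others that called anything called 0.00807% (replicate block), 0.00828% (GC and length trends removed), 0.355% (no filter) and 0.782% (a crossed pairing added after the data were seen) of all genes tested, and 0.346%, 0.135% and 0.978% without SWT replicate 1, SWT replicate 2 and control replicate 1. HIST3H2A (chr1:228456979-228457873, minus strand) had 9.82 and 8.41 CPM in SWT libraries, against 9.12 and 5.56 CPM in control libraries. Only control replicate 2 was low, and the log2 fold change of 0.29 (SE 0.20, with an adjusted p of 0.900 by edgeR) was -0.0080 without that library. HIST1H2AE, near the filter, had 7 and 16 counts in SWT libraries, against 14 and 13 counts in control libraries, and a log2 fold change of -0.25 with an SE of 0.43.

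Of the H2B genes, HIST1H2BK (chr6:27146418-27146798, minus strand) had 108 and 110.1 CPM in SWT libraries, against 113 and 109.5 CPM in control libraries. The 4 values lay within a few CPM of each other and the groups overlapped. Its log2 fold change was -0.03 with an SE of 0.06 (edgeR adjusted p = 0.970). It was also the clustered histone gene with the most counts, 1084 to 1315 per library. HIST1H2BD (chr6:26158146-26171349, plus strand) had 15.1 and 15.95 CPM in SWT libraries, against 19.3 and 15.0 CPM in control libraries. As in HIST1H2AC, control replicate 1 was high and control replicate 2 was near the SWT values, and the log2 fold change was -0.15 (SE 0.14, with an adjusted p of 0.926 by edgeR). HIST1H2BC (chr6:26114873-26123926, minus strand) had 5.55 and 6.35 CPM in SWT libraries, against 6.20 and 5.56 CPM in control libraries. The groups overlapped, with a log2 fold change of 0.02 (SE 0.18, with an adjusted p of 0.997 by edgeR).

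HIST2H2BE (chr1:149884459-149886652, minus strand), an H2B gene of the HIST2 cluster, had 14.2 and 16.3 CPM in SWT libraries, against 16.8 and 16.9 CPM in control libraries. Both SWT values were below both control values, but SWT replicate 2 only slightly so, and the log2 fold change was -0.14 (SE 0.12, with an adjusted p of 0.920 by edgeR). Of its 50-base coding windows 52.4% also occur in another clustered histone gene, so reads may be split or lost between copies. HIST1H2BJ (chr6:27125897-27132750, minus strand) had 5.45 and 5.92 CPM in SWT libraries, against 6.28 and 6.57 CPM in control libraries. These groups did not overlap either, with a log2 fold change of -0.17 (SE 0.18, with an adjusted p of 0.930 by edgeR). HIST1H2BG (chr6:26215159-26216692, minus strand) had 2.58 and 2.49 CPM in SWT libraries, against 2.24 and 2.12 CPM in control libraries. Its 21 to 29 counts per library gave a log2 fold change of 0.21 (SE 0.28, with an adjusted p of 0.943 by edgeR). HIST1H2BH (chr6:26251651-26253710, plus strand) had 2.58 and 1.97 CPM in SWT libraries, against 2.32 and 2.12 CPM in control libraries, with a log2 fold change of 0.02 (SE 0.30, with an adjusted p of 0.998 by edgeR).

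H3 and H4 form the tetramer at the centre of the nucleosome. HIST2H3PS2 (chr1:143905556-143905966, minus strand), named as a pseudogene but annotated as protein-coding in GENCODE 29, was the highest H3 gene. It had 12.2 and 11.4 CPM in SWT libraries, against 13.8 and 13.7 CPM in control libraries. Both SWT values were below both control values, with a log2 fold change of -0.22 (SE 0.13, unadjusted p = 0.1097, edgeR adjusted p = 0.870). The sign was the same in all 14 alternatives run for it. Of its coding windows 50.6% also occur in another clustered histone gene, and AC239798.4 overlaps it on the same strand, so its reads are uncertain. HIST1H3D (chr6:26196840-26197250, minus strand) had 1.88 and 1.20 CPM in SWT libraries, against 1.89 and 2.53 CPM in control libraries. The nearest libraries of the groups were almost equal, and the log2 fold change was -0.52 (SE 0.34, with an adjusted p of 0.893 by edgeR). AL031777.3 overlaps it on the same strand. HIST1H3G (chr6:26269405-26271815, minus strand) had 2.08 and 1.03 CPM in SWT libraries, against 1.03 and 1.82 CPM in control libraries. The groups overlapped wholly, with a log2 fold change of 0.12 (SE 0.42, with an adjusted p of 0.989 by edgeR). HIST1H4H (chr6:26277609-26285638, minus strand), the only H4 gene tested, had 1.69 and 2.92 CPM in SWT libraries, against 3.10 and 2.63 CPM in control libraries. SWT replicate 1 was low, and without it the log2 fold change of -0.30 (SE 0.30, with an adjusted p of 0.928 by edgeR) became 0.021.

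Replication-independent histone genes act outside S phase as well, most of them through ordinary polyadenylated messages, and drew more reads in these libraries. Of 19 listed, 8 were tested and 9 were at 0. They summed to 1822 and 1835 CPM in SWT libraries, against 1758 and 1803 CPM in control libraries. H3F3B, one of a pair of genes for replacement H3, drew the most reads, at 542 ± 14.3 CPM (SD over 4 libraries). Its partner H3F3A was listed at 0 in every library. How reads with several matches were counted is not known, so that 0 may not be the level of H3F3A itself. H2AFX, the H2A variant phosphorylated at DNA breaks, had 150.2 and 156 CPM in SWT libraries, against 145 and 125 CPM in control libraries. Both SWT values were above both control values, with a log2 fold change of 0.18 (SE 0.07, unadjusted p = 0.0186, edgeR adjusted p = 0.838). The lower control value was that of control replicate 2, the library with heart muscle genes. The log2 fold change of H2AFX without that library is not given here. For the variant H2AFV the log2 fold change was 0.10 (edgeR adjusted p = 0.870), and for the linker histone H1F0 it was -0.08 (edgeR adjusted p = 0.911). Of the 8, 6 were above 0 and none was called, with a median log2 fold change of 0.025.

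Of 28 listed genes that make, cut and turn over histone messages, 27 were in the count table, all 27 were tested and none was called. SLBP, the stem-loop binding protein, had 115 and 109.9 CPM in SWT libraries, against 102 and 114 CPM in control libraries. Those groups overlapped, with a log2 fold change of 0.06 (SE 0.07, with an adjusted p of 0.940 by edgeR). NPAT, a coactivator of clustered histone genes, had 37.7 and 36.5 CPM in SWT libraries, against 33.1 and 35.8 CPM in control libraries, a log2 fold change of 0.11 (SE 0.09, with an adjusted p of 0.912 by edgeR). SRRT, a partner of the cap-binding complex, had 283 and 284 CPM in SWT libraries, against 304 and 307 CPM in control libraries. Its groups were apart, with a log2 fold change of -0.11 (SE 0.05, with an adjusted p of 0.843 by edgeR). The log2 fold change was 0.13 (edgeR adjusted p = 0.870) for XRN1, an exonuclease of messenger RNA decay, and 0.10 (edgeR adjusted p = 0.902) for CSTF2, a subunit of the cleavage stimulation factor. Of the 27, 17 had a log2 fold change above 0, with a median of 0.026. In 10 (37.0%) both SWT libraries lay above both controls, against 17.3% of all genes tested, and in 1 (3.70%) both lay below, against 18%. The shares above and below were 28.8% and 7.69% for the S phase genes and 37.5% and 12.5% for the replication-independent histone genes. For the histone chaperones they were 5.56% and 16.7%, and for the RNAs without tails 0% and 33.3%.

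S phase genes act in cells that replicate their DNA, as clustered histone genes do. All 52 of that list were tested and 0 were called. They summed to 6912 and 6910 CPM in SWT libraries, against 6723 and 6860 CPM in control libraries. The SWT sums were slightly the higher, and 32 of the 52 log2 fold changes were above 0, with a median of 0.026 that ran from 0.0051 to 0.047 with single libraries left out. The log2 fold change was 0.14 (edgeR adjusted p = 0.838) for DTL, a ubiquitin ligase adaptor of S phase, and 0.10 (edgeR adjusted p = 0.870) for RRM2, a subunit of ribonucleotide reductase. MCM7, a subunit of the replicative helicase with the most reads of the list, had 481 and 479.9 CPM in SWT libraries, against 483 and 480.4 CPM in control libraries. Of 19 histone chaperones, 18 were tested, 0 were called and 7 were above 0, with a median of -0.0089 that ran from -0.022 to 0.015 (without control replicate 2) with single libraries left out. NAP1L4, a nucleosome assembly protein, had 1.29 and 1.89 CPM in SWT libraries, against 2.496 and 2.63 CPM in control libraries, a log2 fold change of -0.67 (unadjusted p = 0.0485, edgeR adjusted p = 0.843). NAP1L1 of the same family stood at 876 and 865 CPM in SWT libraries, against 781 and 885 CPM in control libraries, with a log2 fold change of 0.06 (edgeR adjusted p = 0.919). TONSL, which binds new histone H4, had a log2 fold change of -0.12 (edgeR adjusted p = 0.873).

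RNAs that carry no poly(A) tail were looked at beside the clustered histone genes, whose usual messages carry none either. Of 31 listed in the table, 9 were tested and 10 were at 0. They summed to 36.8 and 33.3 CPM in SWT libraries, against 42.2 and 33.3 CPM in control libraries. Control replicate 1 was the highest, as it was for the sum of the clustered histone genes. RN7SL2, an RNA of the signal recognition particle, drew the most reads, at 8.97 ± 2.40 CPM (SD over 4 libraries), with 9.82 and 7.80 CPM in SWT libraries, against 11.9 and 6.36 CPM in control libraries. RPPH1, the RNA of ribonuclease P, had 1.88 and 1.54 CPM in SWT libraries, against 2.24 and 2.22 CPM in control libraries, a log2 fold change of -0.39 (edgeR adjusted p = 0.912). The log2 fold change was -0.33 (edgeR adjusted p = 0.916) for the small nucleolar RNA SNORA73B and -0.22 (edgeR adjusted p = 0.932) for RN7SK, which holds back transcription elongation. Of the 9, 8 were below 0 and 0 were called, with a median of -0.087 that was 0.035 once the trends with GC content and length were removed. Whether carried-over RNA without tails has a part in the levels of the clustered histone genes was not tested.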

How the data were processed

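The authors deposited raw counts per gene symbol for 28058 genes and a table of log2 values for 17151 genes (60 of the 74 clustered histone genes). Library differences in that table had a slope of 0.312 on those of log2 CPM; how those log2 values were made is not given in the sources used here. Trimmomatic 0.36, FastQC 0.11.5, STAR 2.5.3a, HTSeq, DESeq2 and hg38 are named without roles, per the submitters' processing notes. Annotation, strand setting and the treatment of reads with several matches are not given in the sources used here.

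Counts were tested with edgeR 4.0.16 (R 4.3.3): TMM, filterByExpr, quasi-likelihood F-test, Benjamini-Hochberg adjustment over the 12399 genes kept, threshold 0.05. The biological coefficient of variation was 4.32%. SE was taken as the log2 fold change, without its sign, divided by the root of F. The fit was also run on simulated counts with 200 changed genes, whose outcome is not given here. Their spread was estimated from these same libraries, so that run cannot speak to a spread between cultures. Intervals and floors cover counting error only. With 2 against 2 libraries an exact two-sided permutation test cannot go below 0.333, so sums have no test. Alternatives were 2 scalings, 2 filters, the replicate number as a block, each library left out, DESeq2 1.42.0, limma-voom, robust empirical Bayes, limma 3.58.1 on the second table, a GC and length correction (both known for 97.4% of genes tested), a threshold of 0.1 and, added after the data were seen, a crossed pairing. A log2(value + 1) step was planned for the second table only if it was not yet logarithmic.

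Structures and hairpins come from GENCODE 29 (74 of 74 symbols matched), spans and promoters from RefSeq GRCh38.p14 (66 with a promoter). Named genes were the 12 highest, the highest of each class and the 4 with the smallest p-values in each direction, and in the related lists the highest, the 3 with the smallest p-values, SLBP and NPAT; 1 S phase gene that this rule names is not reported here. HIST1H2AE, HIST1H3H, HIST1H4C, HIST1H1B and HIST1H1E and the partners in divergent pairs were named after their values were seen. The genes and all lists were chosen with earlier results of these data known.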

Additional observations from a re-analysis of the deposited data

How the results depend on the processing

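Over all genes tested, where the main counts were 0 higher and 0 lower, the alternatives gave 1 higher and 0 lower with the GC and length trends removed, 0 and 1 with the replicate block, and 20 and 43 with no filter. With single libraries left out they gave 2 to 106 higher and 15 to 97 lower. The same-numbered samples did not deviate together (correlation -0.264), so the numbers are not taken as pairs. A crossed pairing, chosen after seeing the data, gave 55 higher and 42 lower, with 0 clustered histone genes among either. Of the clustered histone genes, 0 were called higher in every alternative, 0 were called lower with all libraries kept, and 0 to 1 lower with single libraries left out, the 1 being HIST1H2AC without control replicate 2. Replication-independent histone genes gave 0 to 1 called higher (the 1 without control replicate 1) and histone chaperones 0 to 1 (the 1 without control replicate 2).

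The median of the clustered histone genes was -0.10, -0.097 with the replicate block, -0.0093 with the deposited log2 values and -0.14 to -0.027 with libraries left out. The median of replication-independent genes, 0.025, was 0.034 with GC and length trends removed, 0.013 with the deposited log2 values and 0.028 to 0.068 with libraries left out. That of processing genes ran from -0.00023 to 0.047 with libraries left out, that of S phase genes from 0.0051 to 0.047 and that of chaperones from -0.022 to 0.015. That of RNAs without tails was 0.035 with GC and length trends removed and -0.24 to -0.049 with libraries left out.

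None of the named genes whose sign turned had passed a threshold. With GC and length trends removed, HIST1H2BK was 0.086, HIST1H1C 0.015 and HIST1H2BH -0.0023. With libraries left out, the lowest and highest log2 fold changes were -0.15 and 0.039 for HIST1H1C, -0.31 and 0.056 for HIST1H2BD, -0.0080 and 0.71 for HIST3H2A, -0.084 and 0.11 for HIST1H2BC, -0.76 and 0.021 for HIST1H4H, -0.17 and 0.21 for HIST1H2BH, -0.45 and 0.91 for HIST1H1D, and -0.45 and 0.56 for HIST1H3G. The causes were not tested. HIST1H2AC, HIST2H2BE, HIST2H3PS2, HIST1H2BJ, HIST1H2BG and HIST1H3D had the same sign in every alternative run for them. A lone library left in a group is assumed to vary like the others. Depth limits the 58 genes under 10 counts per library.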
